A study of Mus musculus with 10 samples.

Results

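The miRNAs of the miR-297, miR-466, miR-467 and miR-669 names were followed in proliferating mouse C2C12 myoblasts, an established muscle precursor line of the C3H strain. Members were taken as every mouse name that began with miR-297, miR-466, miR-467 or miR-669 and did not end in an asterisk, which marks the star strand. By this rule there were 40 members among the 687 miRNA names measured in all. They comprised 3 named miR-297, 17 named miR-466, 8 named miR-467 and 12 named miR-669. All 40 were on the miRNA microarray, among its 617 mouse miRNAs. Array A of the qPCR-array set carried 9 of them among 375 miRNA assays, and Array B carried 5 among 209. No member was on both qPCR-arrays, so 14 members were measured on both platforms and 26 on the microarray only.

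All 10 samples were aliquots of 1 RNA sample of untreated cells, so the study compared measurements and not biological conditions. Each p-value therefore measures technical spread only. For Array A, 500 ng of RNA went into each of reverse transcription (RT) reactions 1 and 2, and the product of each was run on day 1 and on day 2, which gave 4 cards. Array B was run on 2 cards without and 2 cards with pre-amplification, which is a round of PCR before the card. The 2 miRNA microarrays used 8 μg of RNA each. The qPCR-array reports the cycle threshold (Ct), the PCR cycle at which the signal crosses a set level, so that a lower Ct means more product and a difference of 1 cycle is a doubling step at full efficiency. A Ct of 40 stands for an assay that never crossed the level. A mean Ct of 35 or less was taken as detectable. On the microarray, a deposited signal of 32 or more on both arrays was taken as detectable.

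Most of these miRNAs lie within an intron of Sfmbt2, a Polycomb-group gene that is imprinted in the mouse and transcribed from the paternal copy in extraembryonic tissue. The intron holds a long tandem array of near-identical hairpins that expanded in rodents, and mice that lack the array have a malformed placenta. A miRNA finds its target mRNAs mainly through its seed, bases 2 to 8 from the 5′ end. Some members have been studied outside the placenta: miR-669a has been described to target MyoD mRNA in mouse cardiac progenitors, miR-467b to target lipoprotein lipase mRNA in mouse macrophages and miR-466h to act in apoptosis of cultured cells.

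In the RefSeq annotation of GRCm38.p6, Sfmbt2 was on chromosome 2 and 72 miRNA genes lay within it, all 72 of these 4 names. Every annotated copy of 30 of the 40 members lay within Sfmbt2. For 4 members (miR-297a, miR-466f, miR-466f-3p and miR-466f-5p) 3 copies lay within it and 1 lay elsewhere, on chromosome 7 for miR-297a and on chromosome 13 for the miR-466f names. The other 6 members had no copy there. These were miR-466i on chromosome 13, miR-466j on chromosome 10, miR-466k on chromosome 3, miR-467f on chromosome 11, miR-467g on chromosome 5 and miR-467h on chromosome 9. Copy number varied, with 12 annotated genes for miR-669a, 10 for miR-467a and 8 for miR-466b-5p, while miR-467b, miR-467c, miR-467d, miR-467e and miR-466d-3p had 1 each. The values of names with several genes cannot be assigned to a single gene.

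The 7 members that the qPCR-arrays detected are shown first, because the Ct values below turn on how their sequences differ. They are followed by miR-466a-3p and miR-466b-3-3p, which are near copies of miR-466d-3p. Sequences were those listed for the microarray probes, written 5′ to 3′ with the seed in capitals, and were matched to the qPCR-array assays by name.
miR-467a: uAAGUGCCugcauguauaugcg
miR-467b: gUAAGUGCcugcauguauaug
miR-467c: uAAGUGCGugcauguauaugug
miR-467d: uAAGUGCGcgcauguauaugcg
miR-467e: aUAAGUGUgagcauguauaugu
miR-669a: aGUUGUGUgugcauguucaugu
miR-466d-3p: uAUACAUAcacgcacacauag
miR-466a-3p: uAUACAUAcacgcacacauaaga
miR-466b-3-3p: aAUACAUAcacgcacacauaaga

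Counting positions from 1 at the 5′ end, miR-467c differed from miR-467a by C8G and C21U, and miR-467d differed from miR-467a by C8G and U9C. The change at position 8 lies in the seed, so miR-467c and miR-467d shared a seed that miR-467a did not have. miR-467b and miR-467a shared a run of 20 bases that started at base 2 of miR-467b and base 1 of miR-467a, which moved the seed by 1 base. The seed of miR-467a was the same as that of miR-290-3p and miR-292-3p, from the miR-290 cluster of embryonic stem cells. Among all 40 members there were 26 seeds, and 9 of these were shared by 23 members. miR-466a-3p, miR-466b-3-3p, miR-466d-3p and miR-467g had 1 seed in common, and so did miR-297a, miR-297b-5p and miR-297c.

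MammU6, the small nuclear RNA used as the reference, had Ct values from 19.57 to 19.77 on the Array A cards, and on Array B they were 21.71 and 21.67 before and 13.803 and 14.012 after pre-amplification. The plant miRNA assay ath-miR159a, which has no target in mouse RNA, stayed at 40 on all 8 cards. On the qPCR-arrays 4 of 5 muscle markers were detectable, and miR-1 was not. None of 10 markers of embryonic stem cells, 5 of epithelium, 1 of liver and 1 of neurons was detectable, while 2 of 4 blood markers, miR-142-3p and miR-223, were. The calls of miR-1 (mean Ct 35.4, cards from 31.8 to 40) and miR-223 (34.4, from 33.1 to 35.9) were near the limit. Of the markers not detectable by their mean, some also had a lowest card at or below 35. These were miR-200c (32.9), miR-142-5p (33.6), miR-294 (34.2), miR-141 (34.5), miR-429 (34.5) and miR-124 (34.97), each with a highest card at 40.

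On Array A, 6 of the 9 members were detectable, all 5 of the miR-467 assays and miR-669a. Over all miRNA assays of Array A the share was 48.5%. The first of these was miR-467a, with Ct values of 30.96 and 30.82 in RT reaction 1 (days 1 and 2) and 31.35 and 31.38 in reaction 2. Its mean of 31.13 ± 0.28 (SD, n = 4 cards) ranked 107 of the 182 detectable miRNAs. The other 5 had later means, so all 6 lay in the later part of the detectable range.

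miR-467c had Ct values of 31.64 and 31.80 in reaction 1 and 33.01 and 32.50 in reaction 2, with a mean of 32.24 ± 0.64. miR-467e had 31.47 and 32.86 in reaction 1 and 30.86 and 33.79 in reaction 2, with a mean of 32.24 ± 1.33. These means were nearly equal, but miR-467c was split by reaction and miR-467e by day. miR-467b had 32.97 and 31.69 in reaction 1 and 32.29 and 32.82 in reaction 2, with a mean of 32.44 ± 0.58. miR-669a had 32.76 and 31.63 in reaction 1 and 32.30 and 32.95 in reaction 2, with a mean of 32.41 ± 0.59. The same card, reaction 1 on day 2, was the lowest for both.

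miR-467d was the latest of the 6. Its Ct values were 33.64 and 37.03 in reaction 1 and 33.90 and 33.53 in reaction 2, so that 3 of 4 cards were below the limit of 35 and the card of reaction 1 on day 2 was above it. The mean was 34.53 ± 1.68 over the 4 cards (rank 172 of 182) and 33.69 ± 0.19 over the 3 cards without that one.

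The 3 members that were not detectable on Array A were miR-297b-5p, miR-297c and miR-466h. miR-297b-5p had Ct values of 36.06, 34.66, 40 and 38.96. miR-297c crossed the level on 1 card of 4, at 33.88, and miR-466h on the same card, reaction 1 on day 1, at 35.87. A single early card with the others at 40 gave no level for either of them. Each of the 9 had at least 1 card at which the assay crossed the level.

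**Figure D1:**
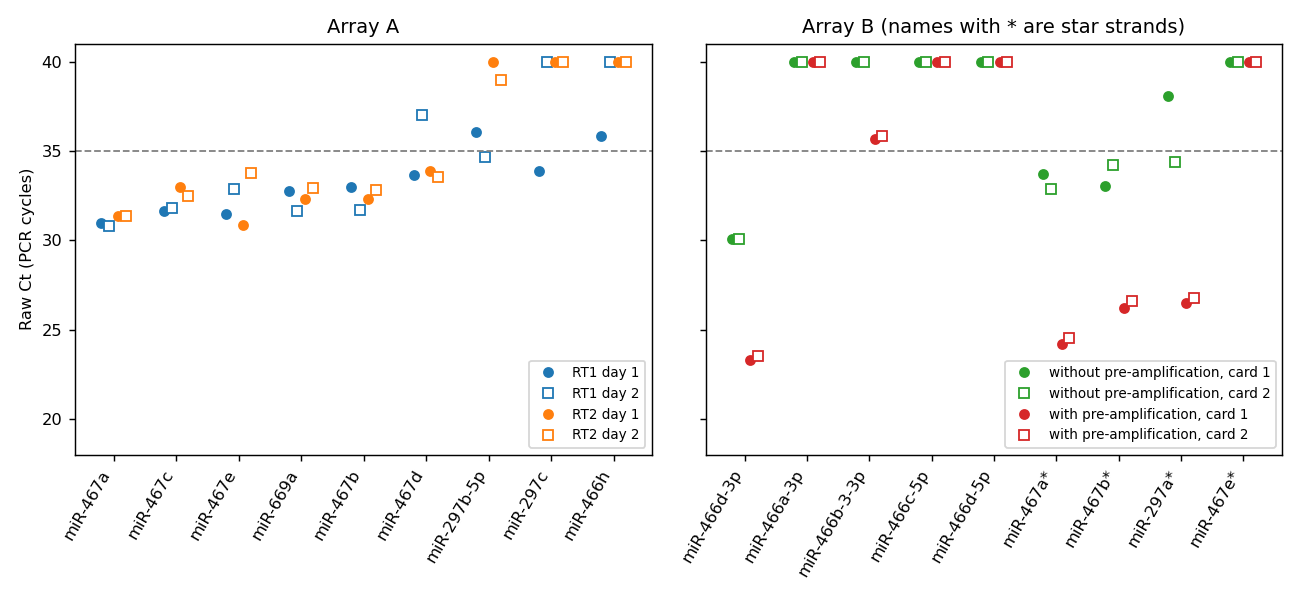
Raw Ct (PCR cycles) of each member on every Array A card (left) and of the members and star strands on every Array B card (right), each point being 1 card, with the dashed line at a Ct of 35. The miR-467 assays and miR-669a lie below the line on every card except 1 of miR-467d, and on Array B miR-466d-3p lies far below miR-466a-3p, which was at 40 on all 4 cards.

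Ct values of different assays also depend on the efficiency of each assay, so their order is an order of readings and not of molecules. With that limit, miR-467a read earlier than miR-467b, miR-467c, miR-467d and miR-669a on 4 of 4 cards. The difference between miR-467a and miR-467b, which share 20 bases, was -1.31 ± 0.53 cycles (SD, n = 4 cards, from -2.01 to -0.86). That between miR-467a and miR-467c was -1.11 ± 0.41. Against miR-467e, miR-467a read earlier on 3 of 4 cards, with a difference of -1.12 ± 1.35 that was smaller than its spread. The means of miR-467b, miR-467c, miR-467e and miR-669a lay within the spread between cards and had no order.

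The pair miR-467b and miR-669a moved together from card to card. Their difference was 0.031 ± 0.14 cycles (SD, n = 4 cards, from -0.13 to 0.20), although each had an SD near 0.6 over the same cards. The longest run of bases that miR-669a shared with miR-467a was 7. From its base 2 on, miR-467b is a run of 20 bases of miR-467a, so miR-467b and miR-669a are not near copies. The comparison set was 1128 pairs of 48 assays with a mean Ct over 30 to 35 and an SD of at least 0.5. In it the median SD of the difference was 1.52 cycles. At or below 0.138 were 2 pairs (0.177%), and miR-467b with miR-669a was 1 of these. The SD of the 48 assays had no upper limit and reached 3.70, so the set is no measure for assays with an SD near 0.6. The pair of miR-467b and miR-669a was chosen after its values were seen, and no test was made.

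The comparison of RT reactions set 2 RT products of the same RNA against each other. The cards of a reaction were runs of 1 product, so the SE and p-values measure the spread between runs. They concern these 2 products and not reverse transcription in general. The comparison was made on ΔCt, the Ct minus that of MammU6 on the same card. miR-467c read later in reaction 2 by 1.12 cycles (SE 0.23), and its reaction 2 cards did not overlap those of reaction 1. The difference was 1.37 cycles on day 1 and 0.70 on day 2 in raw Ct. miR-467a also had both cards of reaction 2 later, by 0.55 cycles of ΔCt (SE 0.19). Such a lack of overlap between reactions, found for these 2 of 6 members, held for 66 of 182 miRNAs (36.3%). Neither passed the test, with adjusted p-values of 0.365 and 0.718 (limma, Benjamini-Hochberg over 182 miRNAs). Of the 6 detectable members, 0 passed limma's test, against 4 of 182 miRNAs (2.2%), 2 in each direction (1.1%). Before adjustment for multiple tests, miR-467c alone among the 6 was past the threshold, as were 8 of the 182. The other 4 had differences of -1.54 (miR-467d), 0.51 (miR-669a), 0.31 (miR-467b) and 0.24 (miR-467e) cycles, each below 1.5 times its SE.

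The comparison of days set day 2 against day 1, with 1 card of each RT product per day. Its SE therefore also holds the spread between the products, and its p-values concern these 2 days only. miR-467e read later on day 2 in both reactions, by 1.39 and 2.93 cycles of raw Ct, and by 2.07 cycles of ΔCt (SE 0.51, limma adjusted p = 0.802). It did not pass the test. It was the only 1 of the 6 detectable members whose days did not overlap in ΔCt, which held for 49 of the 182 miRNAs (26.9%). In this comparison 0 of 182 miRNAs passed limma's test (0%), with 8 past the threshold before adjustment, miR-467e among them. miR-467d had a difference of 1.42 cycles (SE 1.25) that rested on the card of reaction 1 on day 2, since the difference between days was 3.38 cycles in reaction 1 and -0.37 in reaction 2.

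The spread of the members between cards was near that of other late assays. Their SD of raw Ct ran from 0.28 for miR-467a to 1.68 for miR-467d, with a median of 0.61 (n = 6). Over all 93 miRNAs with a mean Ct above 30 and up to 35 the median SD was 0.51, from 0.078 to 3.70.

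Array B carried 5 members, all named miR-466. Without pre-amplification 1 of the 5 was detectable (28.7% of all miRNA assays of Array B), and with it 1 of 5 (52.2%). This was miR-466d-3p in both cases. Its Ct was 30.09 and 30.07 without pre-amplification, rank 18 of the 60 detectable miRNAs, and 23.30 and 23.54 with it, rank 28 of 109. In raw Ct it was the earliest member on either qPCR-array without pre-amplification. MammU6 read later on these Array B cards than on Array A, and the mean ΔCt was 8.39 for miR-466d-3p beside 11.5 for miR-467a.

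The other members of Array B differed sharply from it. miR-466a-3p stayed at 40 on all 4 cards, with and without pre-amplification. miR-466a-3p and miR-466d-3p have the same first 20 bases and the same seed, and differ by A21G and by the bases that miR-466a-3p has beyond the 21 of miR-466d-3p. miR-466b-3-3p, which differs from miR-466a-3p by U1A alone, was at 40 on both cards without pre-amplification and at 35.65 and 35.87 with it. The reverse transcription primer of such an assay binds the 3′ end of the miRNA. Whether the difference in Ct lay in the RNA or in the assays was not tested. miR-466c-5p and miR-466d-5p were at 40 on all 4 cards, the latter being the other arm of the hairpin that gives miR-466d-3p.

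The comparison with and without pre-amplification asked whether the extra PCR keeps relative levels. For miR-466d-3p ΔCt was 8.38 and 8.40 without and 9.50 and 9.53 with pre-amplification, and the cards did not overlap. The shift was 1.12 cycles (SE 0.18, limma adjusted p = 0.0116 over 60 miRNAs), later relative to MammU6 with pre-amplification. Of the 60 miRNAs tested, 15 passed (25%), 9 of them in this direction (15%), so that 1 of 1 members is no result about the members. The call was lost with the replicate number as a block (shift of 1.12, adjusted p = 0.0669) and without either of the pre-amplified cards, replicate 1 (adjusted p = 0.0993) or replicate 2 (adjusted p = 0.103). In raw Ct, pre-amplification brought miR-466d-3p forward by 6.66 cycles, against 7.79 for MammU6 and a median of 7.77 over the 60 miRNAs (2.93 to 10.0). A smaller gain was found for 8 of the 60.

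The star strands of the same names were on Array B, and they are the opposite arms of hairpins that also give members. miR-467a* had Ct values of 33.74 and 32.85 without pre-amplification and 24.20 and 24.53 with it. miR-467b* had 33.07 and 34.24 without and 26.23 and 26.58 with it. Both were detectable on either protocol. miR-297a* read 38.09 and 34.41 without pre-amplification and 26.47 and 26.79 with it, and so was detectable only with it. miR-467e* was at 40 on all 4 cards, while miR-467e itself was detectable on Array A. Thus 2 of 4 star strands were detectable without pre-amplification and 3 of 4 with it. The shift of ΔCt was -1.15 cycles for miR-467a* (SE 0.33, limma adjusted p = 0.0675) and 0.53 for miR-467b* (SE 0.44, limma adjusted p = 0.405), and neither passed.

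On the microarray most members were not above the detection limit. Of the 40 members, 3 had a signal of 32 or more on both arrays, against 137 of the 617 probes (22.2%). The 3 were miR-466f-3p, miR-467f and miR-669c. Under the stricter spot criteria of the study's methods, as far as the files allow them, 0 of the 40 were detectable. These had to be met on both arrays. Their share over all 617 probes was not taken, so this count is no trait of the members. The median signal of the members was 17.6 on array 1 and 18.7 on array 2, beside 16.4 and 20.6 over all probes. Members at 32 or more numbered 4 on array 1 and 6 on array 2, against 149 and 162 of the 617 probes. Each probe was printed in 5 spots, and the values below are means over these with the SD over spots.

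First by mean signal over both arrays was miR-466f-3p, with a signal of 48.4 ± 13.82 on array 1 and 247 ± 40.2 on array 2. miR-467f had 54.0 ± 4.56 and 220 ± 37.5. miR-466i, with 29.6 ± 5.75 and 114 ± 21.4, was below the limit on array 1 only. These 3 were all higher on array 2. miR-466g had 14.3 ± 6.36 and 72.9 ± 19.9. miR-669f had 18.4 ± 9.29 and 57.0 ± 22.2. miR-669c had 45.8 ± 10.1 and 52.5 ± 18.2, and was the only detectable member with nearly the same signal on both arrays.

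miR-466a-5p seemed high on array 1, with 136 ± 286, but the mean rested on 1 spot. Its 5 spots on array 1 read 11.5, 1, 6.04, 647 and 12.5, and the 4 other spots averaged 7.76. On array 2 it had 18.5 ± 8.05, so it was not taken as detectable. Below these, the next members by mean signal were miR-466h, miR-467c and miR-466f-5p, with means over both arrays of 24.7, 23.4 and 23.1.

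**Figure D2:**
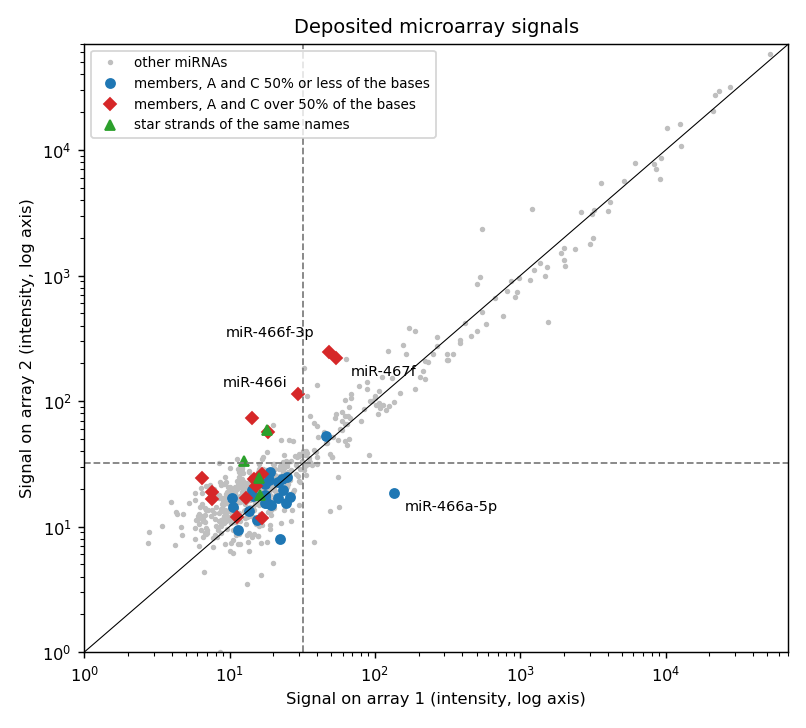
Deposited background-subtracted signal of each of the 617 mouse miRNA probes on array 1 (x axis) and array 2 (y axis), both on log axes, with members, star strands and other miRNAs marked, the dashed lines at 32 and the solid line at equality. Members of both kinds lie on either side of the line of equality, miR-466f-3p lies far above it at 48.4 and 247, and miR-466a-5p stands apart at 136 on array 1.

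The comparison of the 2 microarrays asked how well a second aliquot of the RNA repeats the first. Of the 40 members 5 passed the test, all 5 higher on array 2, against 42 of 617 probes in either direction (6.81%) and 29 in this direction (4.7%), with 13 lower (2.11%). On the log2 scale after background correction and loess, the differences (array 2 minus array 1) were 1.41 for miR-466f-3p (SE 0.10, limma adjusted p = 2.5e-09), 1.20 for miR-467f (SE 0.10), 0.77 for miR-466i (SE 0.09), 0.66 for miR-466g (SE 0.10) and 0.41 for miR-669f (SE 0.12, adjusted p = 0.0371). The repeats were spots on the same array, so the p-values compare these 2 arrays and no more. The offset added before taking logs makes these differences smaller than the ratio of the deposited signals. The spots of 5 members did not overlap between arrays, all higher on array 2, against 30 of 617 probes higher (4.86%) and 28 lower (4.54%). These members were miR-466f-3p, miR-467f, miR-466i, miR-466g and miR-467g. The highest spot of miR-466f-3p on array 1 was 69.1 and its lowest on array 2 was 214. Without background correction miR-669f no longer passed (0.16, adjusted p = 0.0501).

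The 5 members that passed all hold a stretch of alternating A and C, which was read from their sequences after the test. Such a stretch is common in these names. The letters ACACAC were in 8 of the 40 members and in all 4 star strands, whether or not they passed. The 5 members are shown with every copy of ACACAC, overlapping copies included, in capitals. Bases of an alternating run that lie outside these copies stay in lower case.
miR-466f-3p: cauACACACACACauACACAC
miR-466i: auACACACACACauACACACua
miR-467f: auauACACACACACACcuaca
miR-466g: auacagacacaugcACACACa
miR-669f: cauauacauACACACACACguau

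miR-466f-3p and miR-466i shared a run of 20 bases, although miR-466i has no copy within Sfmbt2 and 3 of the 4 copies of miR-466f-3p do. The letters ACACAC were found in the mature sequence of 8 members and of 16 of all 617 probes (2.59%). Of the 8 members, 5 passed, and the other 3 were miR-467g, miR-669h-3p and miR-669i. Of all 16 probes, 8 passed as higher on array 2 and 0 as lower. Beside the 5 members these were the star strand miR-467b*, miR-574-3p and miR-329, whose difference of 2.26 was the largest of all probes. The complementary letters GUGUGU were in 15 members and in 22 of the 617 probes (3.57%), and 0 of these 15 members passed, while 2 of the 22 probes did, both of them no members and higher on array 2. By overall composition, A and C made up over 50% of the bases in 14 members, with a median log2 difference of 0.10, and 50% or less in 26, with a median of -0.063 and a highest value of 0.057. Over all probes the same split gave medians of 0.021 (198 probes, 13 higher on array 2 and 4 lower) and 0.00057 (419 probes, 16 higher and 9 lower). These 2 medians lay near each other, and the shares that passed were not tested against each other.

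The longest alternating run of A and C was 11 bases in miR-466f-3p and miR-466i, 12 in miR-467f and 10 in miR-669f. No other probe on the array had a run of 10 or more, and all 4 of these passed. Runs of 7 to 9 were found in 8 probes of these names, of which miR-466g and the star strand miR-467b* passed (0.46, SE 0.11, limma adjusted p = 0.0121). The run of miR-466g was 8 bases, while miR-467g, with a run of 9, did not pass. Outside these names, 1 probe had a run of 7 to 9, miR-574-3p, and it passed as well (0.77). With a run of 6 or fewer, 0 of 32 members passed. Among all other probes with a run of 6 or fewer, 22 of 572 passed as higher on array 2 and 13 as lower. The 22 include miR-329, whose run was 6 bases. By number, most of the probes that passed thus had a run of 6 or fewer, in a group far larger than that with longer runs. The grouping by these letters was made after the values were seen, and no test was made on it.

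**Figure D3:**
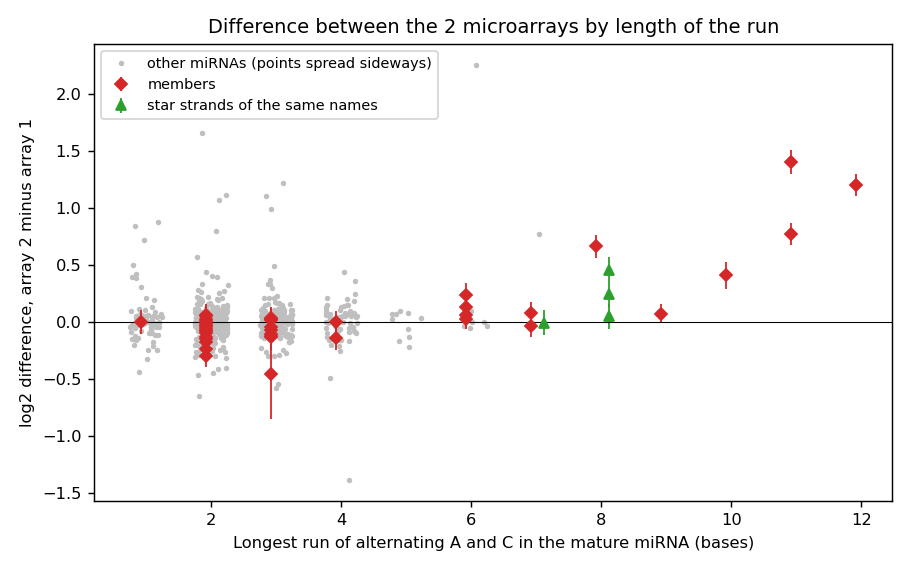
Difference between the 2 microarrays (log2, array 2 minus array 1, after background correction and loess) against the longest run of alternating A and C in the mature miRNA (bases), for members and star strands with the SE over spots and for other miRNAs as grey points. The 4 members with runs of 10 to 12 bases lie between 0.41 and 1.41, while the members with runs of 6 or fewer lie between -0.46 and 0.24. The 8 members and star strands with runs of 7 to 9 lie between -0.036 and 0.66. Other miRNAs with runs of 6 or fewer lie between -1.39 and 2.26.

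The median background was also higher on array 2. The 595 empty spots had a median density of 225 on array 1 and 310 on array 2 before subtraction. The spread of these densities went the other way, with 3 times their SD at 57.9 on array 1 and 45.3 on array 2. The background-subtracted signals of the 3 detectable members on array 1 were below the value of that array. They were 48.4 for miR-466f-3p, 54.0 for miR-467f and 45.8 for miR-669c. Their signals on array 2 were above the value of array 2. The part of the background in the differences was not tested.

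For the 14 members on both platforms, the readings were set side by side. None of them was detectable on the microarray. miR-467a, at a mean Ct of 31.1, had signals of 14.4 and 17.6, and miR-467c, at 32.2, had 22.9 and 23.9. miR-467e had 24.3 and 15.4, miR-467b 10.4 and 16.8, miR-467d 10.5 and 14.3 and miR-669a 11.5 and 9.41. miR-466d-3p, the earliest on the qPCR-arrays, had 7.61 and 16.6. These signals were at the level of the members that the qPCR-arrays did not detect, such as miR-466h with 24.6 and 24.8, miR-297c with 17.6 and 21.9 and miR-466a-3p with 7.51 and 18.8.

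Such a reading was common at these Ct values. Of the 173 mouse miRNAs that were detectable on Array A and present on the microarray, 86 (49.7%) had signals of 32 or more on both arrays. With a mean Ct above 30 and up to 35 the share was 22 of 88 (25%), beside 0 of 6 members. On Array B without pre-amplification it was 6 of 37 in this Ct range (16.2%), beside 0 of 1 members. The 5 members that the microarray showed higher on array 2 were on neither qPCR-array, so their levels had no second measurement.

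**Figure D4:**
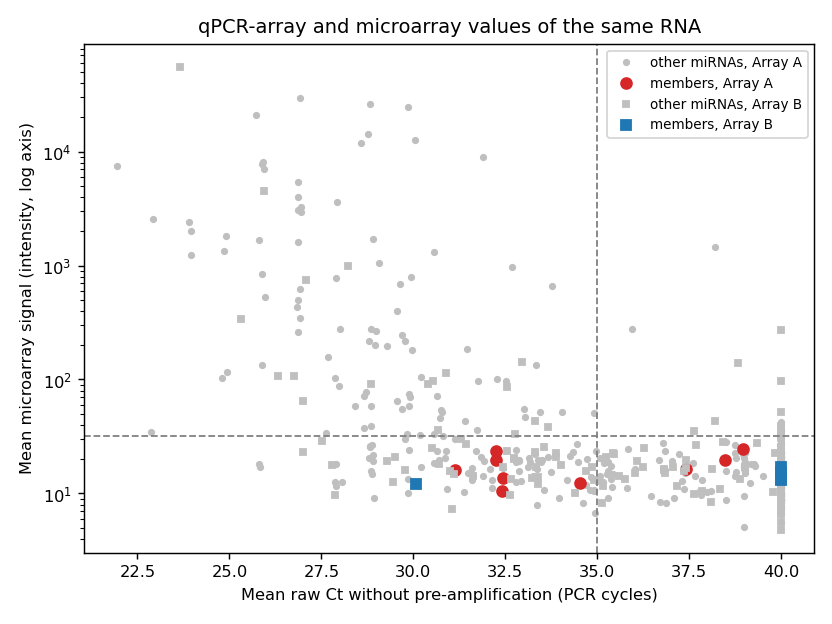
Mean raw Ct without pre-amplification (x axis, PCR cycles) and mean microarray signal over both arrays (y axis, intensity on a log axis) of each mouse miRNA on both platforms, with the dashed lines at a Ct of 35 and a signal of 32. Members on Array A and Array B all lie below the line at 32, among other miRNAs of similar Ct, and miR-466d-3p is the leftmost member at a Ct of 30.1.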

How the data were processed

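Ct values were deposited by the authors per assay, with automatic baseline and a common threshold, together with the same values after subtraction of the MammU6 Ct. Only raw Ct entered the tests, and the subtraction was repeated from them. It matched the deposited ΔCt within 0.001 cycles on 7 cards and, for all members, on the first pre-amplified card. For the microarrays the authors deposited a background-subtracted intensity per spot and the scanner density. Differences between cards were tested on ΔCt with limma 3.58.1 (R 4.3.3), over miRNAs whose mean Ct was at most 35. The microarrays were compared with limma on log2 densities after normexp (offset 50) and cyclic loess, with the 5 spots of a probe as repeats. Benjamini-Hochberg adjusted p-values under 0.05 passed. The fits were tested on simulated data. Python 3.11.15, numpy 2.4.6, pandas 2.3.3 and matplotlib 3.10.9 were used.

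The members, the lists and the tests were chosen with earlier results of these data known. All members are named by the rule. Those detectable on a qPCR-array, the 10 highest on the microarray and those on both platforms are described by value, and the others by counts and ranges. The microarray sequences of 6 members were also in the RefSeq table (GRCm38.p6) and matched it exactly. Rat-named assays were left out. The study's design pairs the cards, by day or reaction on Array A as the labels state, and by replicate number on Array B, where the study's scheme, but not the labels, runs each reverse transcription product with and without pre-amplification. Between cards of 1 number, the deviations from the means of their groups had correlations of 0.0255 (reactions, by day), 0.325 (days, by reaction) and -0.0131 (Array B). Alternatives were a replicate block, other references, detection limits and normalizations, the methods' t-test, and leaving out each card or array.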

Additional observations from a re-analysis of the deposited data

Results flagged for a closer look

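On the 4 Array A cards, 3 of the 9 members had 1 card far from the other 3, measured as the gap to the nearest card over the whole range and set against Dixon's critical value for 4 samples. miR-297c had a ratio of 1.0, with 1 card at 33.88 and the others at 40. miR-466h had a ratio of 1.0, with the same card at 35.87 and the others at 40. Both ratios follow from the 3 cards set to 40 and carry no weight of their own. miR-467d had a ratio of 0.893, with the card of reaction 1 on day 2 at 37.03 and the others from 33.53 to 33.90. About 1 in 20 groups passes the critical value by chance.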

How the results depend on the processing

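The number of miRNAs that passed between RT reactions was 4. It was 1 with the replicate block by day, 2 on raw Ct, 0 at a mean Ct of 32 or less, 0 with the methods' t-test after Benjamini-Hochberg adjustment and 0 to 1 with a card left out. Between days it was 0, but 2 at a mean Ct of 32 or less and 0 to 1 with a card left out. For pre-amplification it was 15, but 4 with the replicate block, 60 on raw Ct, 26 with the other endogenous controls, 2 with the methods' t-test and 8 to 32 with a card left out (32 without the second card that had no pre-amplification). The 1 member called there became 0 with the replicate block, and 0 to 1 with a card left out. Between the microarrays it was 42, but 72 with no normalization between arrays. The 5 members called became 2 among the probes with a signal of 32 or more on both arrays, a limit that left 3 members to test. Of all probes at this limit, 53 of 137 passed. Members detectable on Array A fell from 6 to 1 at a mean Ct of 32 or less, and all detectable miRNAs of Array A from 182 to 125. Members detectable on the microarray fell from 3 to 0 at a signal of 500 and to 0 under the spot criteria of the methods on both arrays. The shares over all probes at these 2 limits were not taken. With an array left out the members numbered 4 to 6, against 149 to 162 of 617 probes.

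With 1 Array A card left out at a time, no member passed the test, and several differences changed sign. Those between RT reactions ran from -0.43 to 1.05 cycles for miR-467b, -3.13 to 0.0545 for miR-467d, -1.24 to 1.71 for miR-467e and -0.16 to 1.17 for miR-669a, and those between days from -0.52 to 0.23 for miR-467a, -1.12 to 0.20 for miR-467b, -0.93 to 0.41 for miR-467c, -0.23 to 3.07 for miR-467d and -1.08 to 0.43 for miR-669a. The card of reaction 1 on day 2 turned the sign for all of these but the reaction difference of miR-467e, which turned without reaction 1 on day 1 (-0.36) or without reaction 2 on day 2. The day differences of miR-467a and miR-467c also turned without reaction 2 on day 1. The shift of miR-466d-3p was -6.66 on raw Ct, which holds the pre-amplification itself, and with no filter on Ct its adjusted p was 0.0555 (limma). The difference of miR-466a-5p between the microarrays was -0.46, and 0.16 without its bright spot, an alternative chosen after seeing the data. For miR-669f the adjusted p was 0.271 with the methods' t-test. The causes were not tested beyond the cards and spots named. The replicate block changed no other call of a member. The number of cards and arrays limits the precision, and most members had signals near the background of the microarray.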
